A study of Mus musculus with 6 samples.

Results

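The genes described here are the Notch receptors Notch1, Notch2, Notch3 and Notch4, the ligands Jag1, Jag2, Dll1 and Dll4, and the target genes Hes1 and Heyl. They were taken by name as a pathway, with earlier results of these data known, and all 10 were present among the 33697 genes counted in every library. The data were single-cell 3′ RNA-sequencing libraries of live tdTomato+ cells sorted from the intestinal lamina propria of Flare-TSLP mice. TSLP is thymic stromal lymphopoietin, a cytokine made by stromal cells. In Flare-TSLP mice a floxed reporter cassette at the Tslp locus, placed in C57BL/6 embryonic stem cells, makes cells that express Tslp red fluorescent, so the sort was for reporter-positive cells. Cells with immune or epithelial markers were also present (1016 B or plasma cell-like, 356 T cell or ILC-like, 344 myeloid-like and 92 epithelial-like cells), and no filter on tdTomato UMIs was applied here. The labels state no treatment, genotype contrast or age that would separate the libraries, and all of them carry the reporter allele. The small intestine gave 4 libraries, 2 proximal (jejunum) and 2 distal (ileum), and the cecum and the large intestine gave 1 each. Cells of each library carried 3 hashtag antibodies, but no table used here pairs a hashtag with a mouse. The library was therefore the unit of replication, and p-values measure the spread between libraries, which may be technical.

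Notch receptors are single-pass membrane proteins that are activated by ligands on a neighbouring cell. Ligand binding exposes the receptor to cleavage, first by an ADAM protease and then by the γ-secretase complex, and the freed intracellular domain joins the DNA-binding protein RBPJ to switch on target genes of the Hes and Hey families. In blood and lymphatic vessels the pathway is known for shaping sprouting and vessel identity, and Notch3 is a receptor of the mural cells (pericytes and smooth muscle cells) that wrap vessels.

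In the GRCm39 annotation (GENCODE vM39) Notch1 spans chr2:26347915-26406675 (- strand), Notch2 chr3:97920800-98057677 (+), Notch3 chr17:32339794-32385893 (-) and Notch4 chr17:34783220-34807477 (+). Among the ligands, Jag1 spans chr2:136923373-136958693 (-), Jag2 chr12:112871421-112893437 (-), Dll1 chr17:15587276-15597134 (-) and Dll4 chr2:119156170-119166443 (+). Hes1 spans chr16:29882134-29886643 (+) and Heyl chr4:123127349-123143682 (+).

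Each library held between 109675337 and 206827504 unique molecular identifiers (UMIs, each standing for a captured RNA molecule) on genes. After filtering, 93558 cells remained. Cells were assigned to classes by fixed marker genes, none of them a Notch gene listed above, and in each library a gene's level in a class is its UMI count scaled to 1000000 UMIs of that class (CPM). The classes used most were LEC-like cells (lymphatic endothelium, 17067 cells), blood endothelial-like cells (1564) and fibroblast-like cells (61964). The fibroblast-like class contained 40028 trophocyte-like, 9291 SEMF-like (subepithelial myofibroblast) and 1620 telocyte-like cells. Pairs of libraries shared 38 to 118 cell barcodes. A 3′ count does not scale with transcript length. Levels were compared between classes for each gene and not between genes.

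The pericyte and smooth muscle labels did not hold as first gated. Of the 2494 cells in the pericyte marker gate, 1994 had a UMI of Pdgfra, a fibroblast receptor, and in the gate as a whole the 6 fibroblast markers summed to 14270 to 21680 CPM per library, above the 6 pericyte markers (1916 to 5011 CPM). The 500 gated cells with no Pdgfra UMI had pericyte markers at 5913 to 11880 CPM and fibroblast markers at 2205 to 8756 CPM. Only these are called pericyte-like below, a split made after the data were seen, and distal library 1 held only 11 of them and is left out of their means and tests. The smooth muscle gate (2085 cells, 1100 of them with a Pdgfra UMI) was likewise led by fibroblast markers (10360 to 16960 CPM, against 2871 to 5634 CPM of smooth muscle markers). Exactly 3 markers, the fewest allowed, were found in 60.99% of cells in the pericyte gate and 45.71% in the smooth muscle gate, against 7.195% of LEC-like cells. Blood endothelial-like cells also carried fibroblast markers, at 3610 to 13320 CPM against 3219 to 7242 CPM of their own, and 15.88% to 48.78% of them by library had a Pdgfra UMI.

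Hes1 and Heyl encode basic helix-loop-helix transcription repressors that are read out as Notch targets. The 250 bases before the start of their main transcripts (GENCODE vM39, build GRCm39) are shown because RBPJ recognises the core TGGGAA. Capitals mark that core, both strands were searched, and the 7-base form GTGGGAA overlaps it.
Hes1, chr16:29883877-29884126, + strand: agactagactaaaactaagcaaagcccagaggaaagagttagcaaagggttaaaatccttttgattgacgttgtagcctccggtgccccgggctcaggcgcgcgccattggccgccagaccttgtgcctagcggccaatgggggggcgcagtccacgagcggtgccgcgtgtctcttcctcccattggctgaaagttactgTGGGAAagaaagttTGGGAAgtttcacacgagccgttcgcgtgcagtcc
Heyl, chr4:123127099-123127348, + strand: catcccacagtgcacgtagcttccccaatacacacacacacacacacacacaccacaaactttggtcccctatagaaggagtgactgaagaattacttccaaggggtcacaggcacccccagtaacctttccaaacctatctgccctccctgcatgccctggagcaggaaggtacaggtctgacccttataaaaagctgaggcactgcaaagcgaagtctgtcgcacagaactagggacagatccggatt
The Hes1 window held TGGGAA 2 times, starting 49 and 35 bases before the transcript start. The Heyl window and those of the 8 receptor and ligand genes held none. Of 21770 such windows in the genome, 22.7% held at least 1 TGGGAA and 3.06% held 2 or more, so a single match is common. The Hes1 window lies within the annotated span of the gene but holds no exon of it. The Notch1 and Dll1 windows also lie within their genes, and each overlaps 1 exon.

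Among the receptors, each had its own leading class. Notch1 was highest in LEC-like cells, at 243 CPM in the lowest library, 307 at the median and 348 in the highest. Blood endothelial-like cells followed at 87.5 to 256 CPM and pericyte-like cells at 93.2 to 155 CPM. These neighbouring ranges overlapped, whereas fibroblast-like cells (10.6 to 22.4 CPM) lay below all 3. Empty droplets show the make-up of free RNA but not its amount within cells. They held Notch1 at 16.3 to 122 CPM over the libraries. The share of free RNA in the fibroblast-like level was not measured, so that level is not told apart from background. A Notch1 UMI was found in 78.43% ± 6.16 (SD, n = 6 libraries) of LEC-like cells and 12.63% ± 4.78 of fibroblast-like cells, or in 51.94% and 3.889% after each cell was thinned to 2500 UMIs. The median depth per library was 4629 to 7566 UMIs in LEC-like and 6733 to 9828 UMIs in fibroblast-like cells.

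Notch2 was the most evenly spread receptor. It reached 114 ± 18.5 CPM (SD, n = 5 libraries) in myeloid-like cells, 87.7 ± 12.1 in LEC-like cells and 52.1 ± 9.38 in fibroblast-like cells, and its lowest mean, 14.1 ± 3.22 CPM (n = 6), was in blood endothelial-like cells. Empty droplets held Notch2 at 54.2 to 88.0 CPM.

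Notch3 was concentrated in pericyte-like cells, with 1333 and 1664 CPM in the proximal libraries, 1641 in distal library 2, and, in the large bowel, 836 (cecum) and 833 (large intestine). The smooth muscle gate came next at 33.1 to 201 CPM, and LEC-like cells ranged from 0 to 3.92 CPM. No library of another class reached the lowest pericyte-like library, although cells without a clear lead of 1 class (963 cells) held 238 to 719 CPM. A Notch3 UMI was found in 94.02% ± 4.16 (SD, n = 5) of pericyte-like cells and in 0.6832% ± 0.645 of LEC-like cells (n = 6), or in 87.04% and 0.2238% after thinning.

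Notch4, an endothelial receptor, was highest in blood endothelial-like cells at 28.5 to 60.7 CPM with a median of 41.7. LEC-like cells held 1.66 to 9.78 CPM, which did not overlap with the blood endothelial-like range. In fibroblast-like cells it ranged from 0.560 to 0.883 CPM and rested on 375 UMIs in all. Empty droplets held 1.97 to 6.39 CPM of Notch4.

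**Figure D1:**
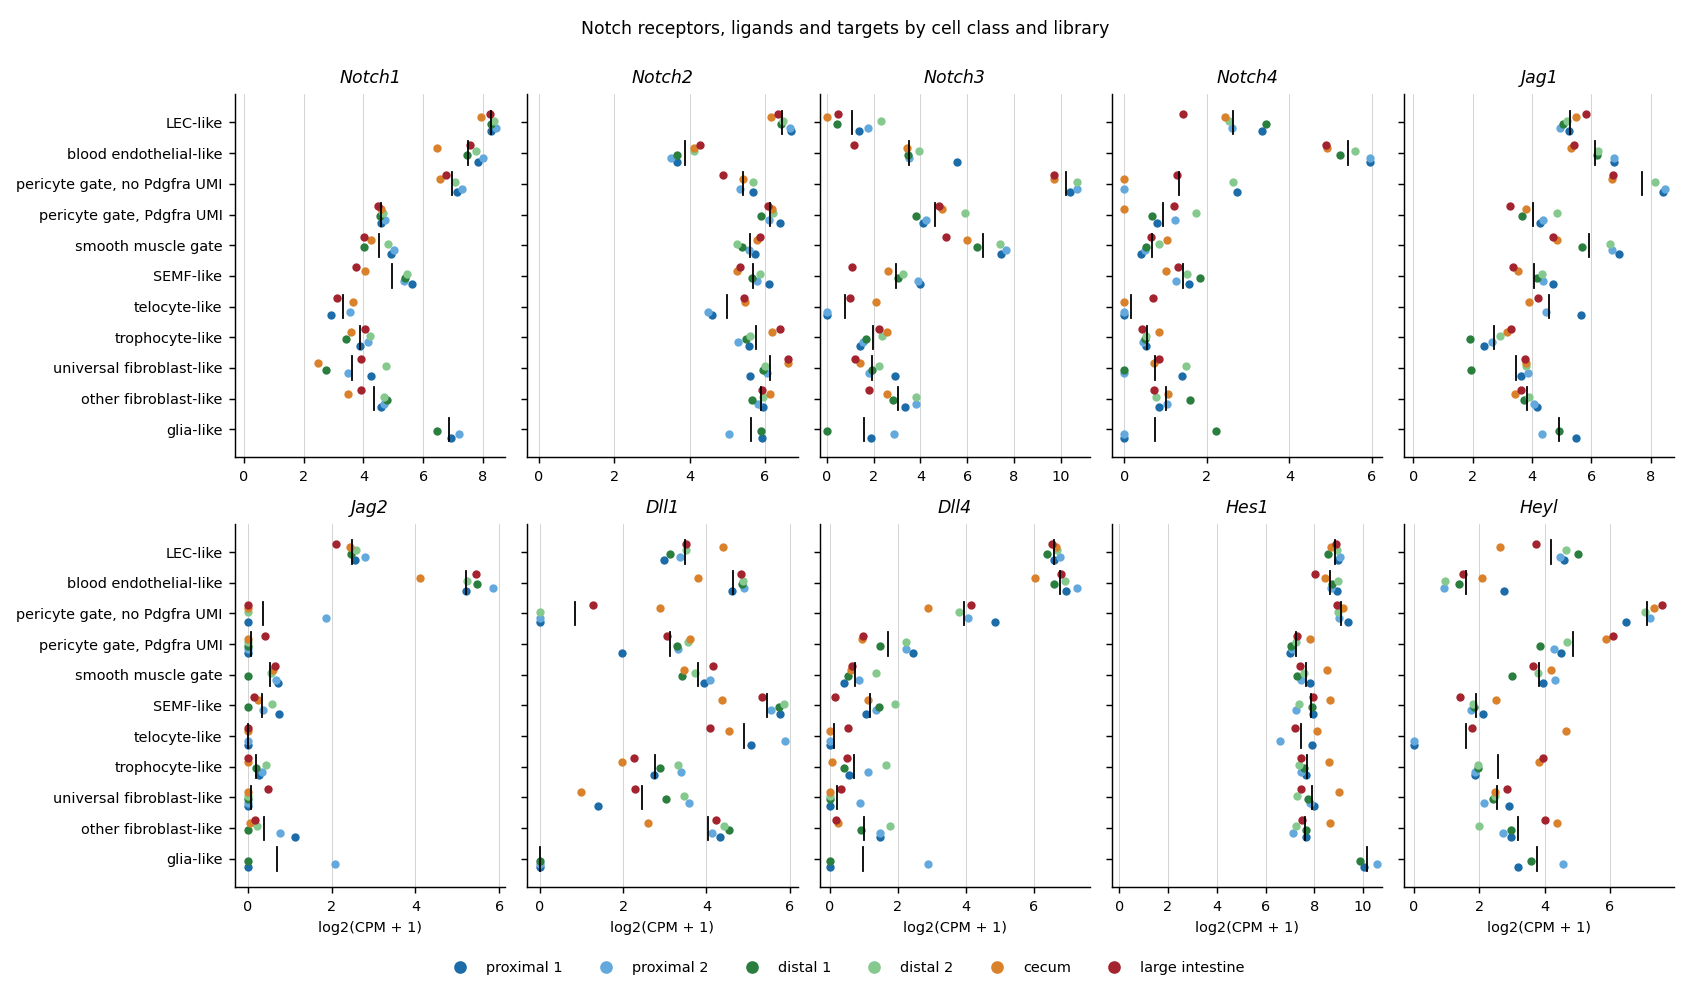
Level of each of the 10 genes as log2(CPM + 1) on the horizontal axis, with the cell class on the vertical axis. Each point is the summed UMIs of 1 library with at least 20 cells of that class, coloured by library, and the black line is the mean of the points. Notch1 peaks in LEC-like cells, Notch3 and Heyl in gated pericytes without a Pdgfra UMI, Notch4 and Jag2 in blood endothelial-like cells and Dll1 in SEMF-like cells.

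The ligands also differed in class. Jag1 was highest in pericyte-like cells, at 335 and 352 CPM in the proximal libraries, 281 in distal library 2, and in the large bowel 103 (cecum) and 105 (large intestine). Blood endothelial-like cells (38.9 to 107 CPM) had a lower mean, but their highest library lay above the pericyte-like values of the cecum and the large intestine. Within each library that held enough pericyte-like cells, blood endothelial-like cells lay below them. The smooth muscle gate had a mean of 70.2 CPM and reached 119.3 CPM, so its range overlapped as well. Its cells without a Pdgfra UMI held 39.7 to 223 CPM, and lay below pericyte-like cells in each of the 5 libraries that could be compared. LEC-like cells (29.5 to 55.1 CPM) and fibroblast-like cells (3.63 to 11.2 CPM) lay below every pericyte-like library. Jag2, the second Jagged ligand, was at 16.2 to 56.6 CPM in blood endothelial-like cells, 3.32 to 5.91 in LEC-like cells and 0.0527 to 0.360 in fibroblast-like cells, and none of these ranges overlapped. Empty droplets held 0 to 5.35 CPM of Jag2.

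Dll1, a Delta ligand, had its highest means in fibroblast classes. SEMF-like cells held 19.9 to 57.6 CPM with a median of 49.5, telocyte-like cells 15.9 to 58.5 CPM and trophocyte-like cells 2.93 to 9.45 CPM. The SEMF-like and telocyte-like ranges overlapped, while every SEMF-like library lay above every trophocyte-like library. A Dll1 UMI was present in 27.09% ± 9.0 (SD, n = 6) of SEMF-like cells and 4.711% ± 2.23 of trophocyte-like cells, or in 9.868% and 1.399% after thinning. Empty droplets held Dll1 at 8.87 to 23.6 CPM, a range that overlaps the highest trophocyte-like and the lowest SEMF-like library. How much of the trophocyte-like share is background was not measured.

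Dll4, which on tip cells restrains neighbouring sprouts, was highest in the endothelial classes. Its level was 64.8 to 155 CPM in blood endothelial-like cells and 82.9 to 107 CPM in LEC-like cells, ranges that overlapped. Pericyte-like cells held 6.43 to 27.9 CPM and fibroblast-like cells 0.243 to 2.25 CPM. Empty droplets held 2.22 to 50.1 CPM of Dll4, so the low fibroblast-like values are not read as expression.

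Of the targets, Hes1 was found in every class. T cell or ILC-like (32.2 to 59.1 CPM) and B or plasma cell-like cells (34.4 to 119 CPM) lay below the range of empty droplets. Hes1 was highest in glia-like cells, at 946, 1062 and 1530.5 CPM in the 3 libraries with at least 20 such cells (34 to 56 each). Glia-like cells also carried fibroblast markers, at 3119 to 10340 CPM against 3558 to 5210 CPM of their own. Exactly 3 markers were found in 30.52% of them. Pericyte-like (484 to 675 CPM), LEC-like (380.1 to 534 CPM) and blood endothelial-like cells (257 to 505 CPM) overlapped with one another and lay below glia-like cells. Fibroblast-like cells held 165 to 208 CPM in 5 libraries and 417 in the cecum, where empty droplets held 200.2 to 396 CPM over the libraries. A Hes1 UMI was found in 87.24% ± 6.72 (SD, n = 3) of glia-like cells and 12.25% ± 3.51 (n = 4) of T cell or ILC-like cells, or in 74.21% and 6.801% after thinning.

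Heyl was highest in pericyte-like cells, at 89.2 and 149.6 CPM in the proximal libraries, 135 in distal library 2, and in the large bowel 161 (cecum) and 192 (large intestine). LEC-like cells held 5.17 to 31.5 CPM and blood endothelial-like cells 0.906 to 5.70 CPM. Pericyte-like cells were therefore the class with the highest means of Notch3, Jag1 and Heyl.

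LEC-like cells were set against fibroblast-like cells, the most abundant classes, in the same 6 libraries, to ask which Notch genes separate lymphatic vessels from the surrounding stroma. Of the 10 genes, 8 were higher in LEC-like cells and 1 was lower (edgeR quasi-likelihood test, library as a block), against a background of 26.7% of the 17839 genes tested higher and 35.8% lower. The median log2 fold change was 2.22 for the 10 genes and -0.10 over all genes tested. Dll4 differed most, with a log2 fold change of 7.10 (SE 0.41, adjusted p = 7.21e-06). Jag2 differed by 4.42 (SE 0.28, adjusted p = 1.01e-05), resting on 662 UMIs against 114. Notch1 differed by 4.23 (SE 0.11, adjusted p = 3.61e-07). Notch4 (3.05), Jag1 (2.18) and Notch2 (0.71, adjusted p = 0.0103) were higher in 6 of 6 libraries. Empty droplets held Jag2 at 0 to 5.35 CPM and Notch4 at 1.97 to 6.39 CPM, ranges that overlap the LEC-like levels of both. The targets were higher in 5 of 6 libraries, Heyl by 2.26 (SE 0.59, adjusted p = 0.0112) and Hes1 by 1.07 (SE 0.25, adjusted p = 0.00619), and the cecum was the exception for both. Notch3 was lower in LEC-like cells in 6 of 6 libraries (-1.22, SE 0.35, adjusted p = 0.0166), but with predicted doublets kept the adjusted p was 0.737 and without the library block 0.0941 (0.000288 to 0.737 over 17 alternatives). In both classes Notch3 lay below its range in empty droplets (6.75 to 36.2 CPM). Dll1 did not pass the test (10.8 ± 4.70 against 13.7 ± 5.18 CPM, SD, n = 6, adjusted p = 0.147), although without the cecum it was lower in LEC-like cells (-0.68, adjusted p = 0.00193).

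Between the endothelial classes, the receptors and ligands divided. Against a background of 21.7% of 11273 genes higher in LEC-like cells and 24.4% lower, 3 of the 9 Notch genes tested were higher in LEC-like cells and 4 were lower, with a median log2 fold change of -0.28. LEC-like cells had more Notch2 (log2 fold change 2.67, SE 0.16, adjusted p = 5.36e-06), Heyl (3.02, SE 0.38, adjusted p = 0.000319, with 40 Heyl UMIs in all blood endothelial-like cells) and Notch1 (0.64, SE 0.14, adjusted p = 0.00707), each in 6 of 6 libraries. Without Pdgfra-positive cells the blood endothelial-like Notch2 level was 5.01 CPM in place of 14.1 CPM, and the differences were 4.06 (SE 0.27) for Notch2 and 0.35 (SE 0.09) for Notch1, both still called. LEC-like cells had less Notch4 (-3.07, SE 0.24, adjusted p = 2.23e-05) and Jag2 (-3.14, SE 0.16, adjusted p = 2.05e-06) in 6 of 6 libraries, and less Dll1 (-1.55, SE 0.23, adjusted p = 0.000772) in 5 of 6. Jag1 was lower in LEC-like cells in the 4 small intestinal libraries. It was higher in the large intestine (55.1 against 41.9 CPM) and the cecum (43.6 against 38.9 CPM, the latter from only 41 cells, 22 with exactly 3 markers). Its pooled log2 fold change of -1.08 (SE 0.30, adjusted p = 0.018) lost its call without proximal library 1 (0.0746), proximal library 2 (0.0635) or distal library 1 (0.0558), with 0.000151 to 0.0746 over 17 alternatives. Dll4 (96.4 ± 8.53 against 111 ± 30.0 CPM, SD, n = 6, adjusted p = 0.13) and Hes1 (adjusted p = 0.413) did not pass. With Pdgfra-positive cells left out of both classes Dll4 was lower in LEC-like cells, by -0.61 (SE 0.09, adjusted p = 0.000264), and without the cecum by -0.39 (adjusted p = 0.00363), with 0.000264 to 0.553 over 17 alternatives. Notch3 was too low to be tested.

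**Figure D2:**
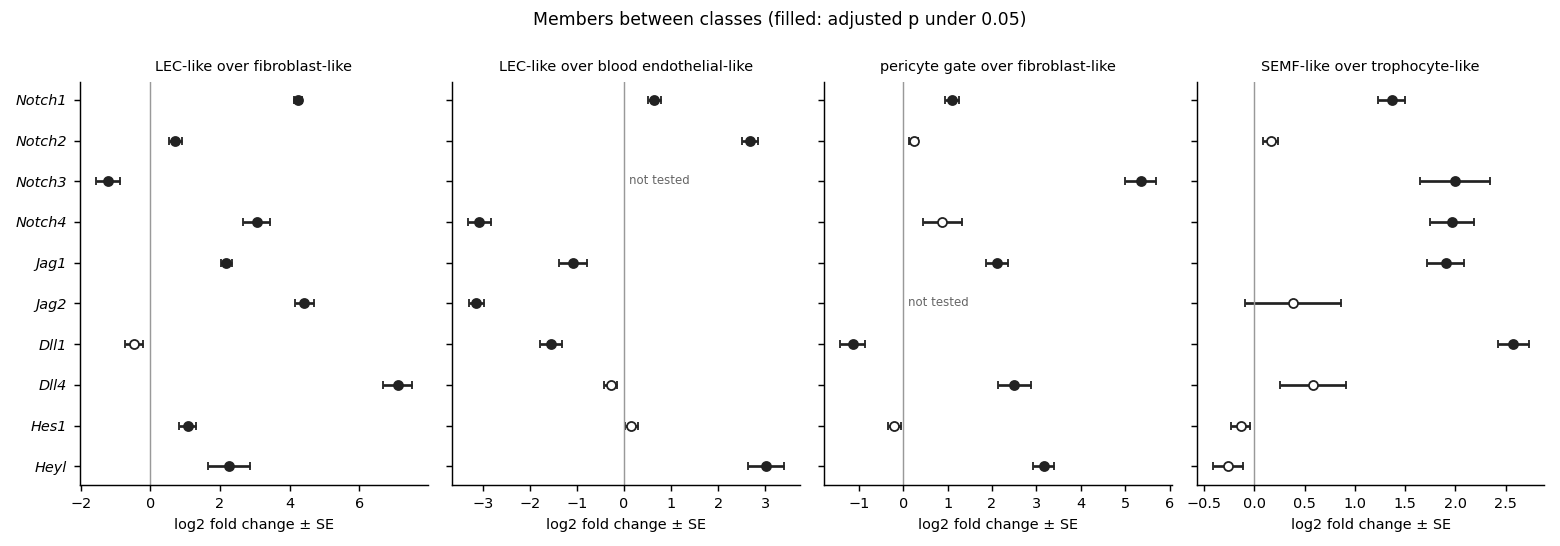
Log2 fold change with its standard error for each of the 10 genes (rows) in 4 comparisons of classes (panels), as fitted over the libraries. Filled points passed an adjusted p of 0.05 and open points did not. Dll4, Jag2 and Notch1 lie furthest right for LEC-like over fibroblast-like cells, while Notch4 and Jag2 lie left of 0 for LEC-like over blood endothelial-like cells.

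In the pericyte gate as fixed, 5 of the 9 genes tested were higher than in fibroblast-like cells and 1 was lower, where 11.2% of the 17050 genes tested were higher and 13.8% lower. The median log2 fold change was 1.10, against -0.03 over all genes, and Jag2 (3 UMIs in the gate) was too low to be tested. Notch3 was at 53.1 to 479.6 CPM against 1.98 to 5.50 CPM (log2 fold change 5.35, SE 0.35, adjusted p = 4.33e-05). Heyl (3.16, adjusted p = 5.79e-05), Dll4 (2.504, adjusted p = 0.0014), Jag1 (2.11, adjusted p = 0.000419) and Notch1 (1.10, adjusted p = 0.000869) were higher in 6 of 6 libraries. Dll1 was lower (-1.14, SE 0.28, adjusted p = 0.0151, lost without proximal library 2 at 0.0503 and with doublets kept at 0.0791). Gated cells with a Pdgfra UMI, which made up 65.21% to 95.11% of the gate by library, held Notch3 at 12.9 to 59.6 CPM.

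Pericyte-like cells were compared with fibroblast-like cells over the 5 libraries that held enough of them, where 11.3% of 16127 genes were higher and 17.1% lower. By their gates all fibroblast-like cells carry a Pdgfra UMI and no pericyte-like cell does, so the classes are split on Pdgfra by design. Notch3 was 8.16 higher on the log2 scale (SE 0.24, adjusted p = 3.02e-11), Heyl 4.78 (SE 0.28, adjusted p = 1.98e-08), Jag1 4.37 (SE 0.32, adjusted p = 1.32e-07), Dll4 4.26 (SE 0.61, adjusted p = 9.31e-05) and Notch1 2.79 (SE 0.16, adjusted p = 1.41e-08). The Dll4 level, 16.0 ± 7.79 CPM (SD, n = 5), lay inside the range of empty droplets. Hes1 turned with the cells used. In the whole gate it was at 206 ± 61.4 CPM against 224 ± 95.8 (SD, n = 6) and did not pass (-0.20, adjusted p = 0.393), whereas in pericyte-like cells it was higher at 551 ± 77.1 CPM (n = 5, 1.22, SE 0.19, adjusted p = 0.000194). Dll1 was lower (-3.71, adjusted p = 0.000449), with 3 of the 5 libraries at 0. Notch2 did not pass (-0.50, adjusted p = 0.0748), a sign opposite to that in the whole gate (0.23, adjusted p = 0.155, or 0.32 with 0.0405 without the cecum).

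**Figure D3:**
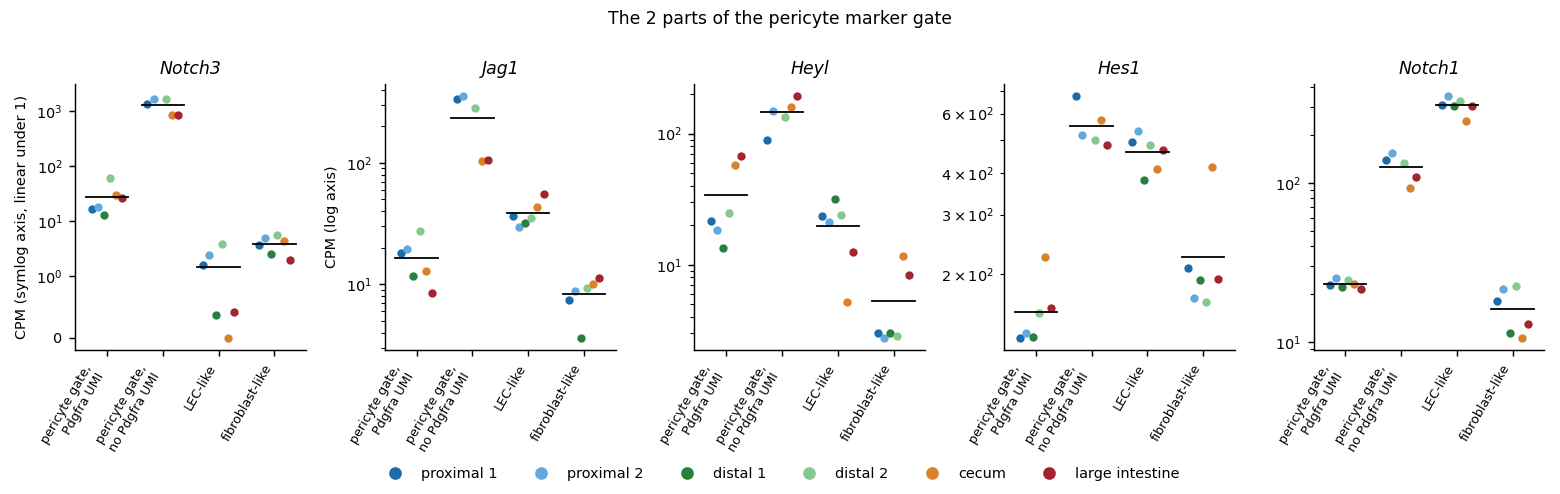
Level in CPM of Notch3, Jag1, Heyl, Hes1 and Notch1 (log axes, the Notch3 axis linear under 1) in gated pericytes with and without a Pdgfra UMI, in LEC-like cells and in fibroblast-like cells. Points are libraries with at least 20 cells and lines are means. Gated cells without a Pdgfra UMI lie above those with a Pdgfra UMI for all 5 genes.

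The smooth muscle gate was compared with the pericyte gate. Both whole gates were led by fibroblast markers, so their values are of mixed cells and not of mural cells alone. Of the 7 Notch genes tested, 1 was higher in the smooth muscle gate and 3 were lower, with 13.5% of 12224 genes higher and 11.7% lower. Notch4, Jag2 and Dll4 were too low to be tested. Heyl was lower in 6 of 6 libraries (13.7 ± 4.31 against 49.7 ± 30.9 CPM, SD, n = 6, log2 fold change -1.67, SE 0.29, adjusted p = 0.00357). The other calls depended on single libraries. Notch1 (-0.67, adjusted p = 0.0232) was lost without distal library 1, distal library 2, the cecum or the large intestine (0.0549 to 0.0732), Notch2 (-0.41, adjusted p = 0.0228) without any of the 4 small intestinal libraries (0.0535 to 0.0582) and Dll1 (1.04, adjusted p = 0.0226) without proximal library 2 (0.0627) or the large intestine (0.0666). Notch3 did not pass in the whole gates (120.4 ± 68.8 against 199.5 ± 153 CPM, SD, n = 6, -0.59, SE 0.47, adjusted p = 0.416, lower in 4 of 6 libraries). With Pdgfra-positive cells left out of both gates, a split made after the data were seen, 13.6% of 9427 genes were higher and 14.2% lower. Notch3 was then at 278 ± 177 against 1261 ± 411 CPM (n = 5, -2.39, SE 0.20, adjusted p = 7.01e-06), Heyl differed by -2.51 (SE 0.24, adjusted p = 1.77e-05), Notch1 by -2.17 (SE 0.17, adjusted p = 4.72e-06), Hes1 by -1.22 (SE 0.19, adjusted p = 0.000509) and Jag1 by -0.88 (SE 0.14, adjusted p = 0.000631). In the whole gates Jag1 (0.73, adjusted p = 0.103) and Hes1 (0.08, adjusted p = 0.726) had the opposite sign and did not pass. Notch2 went from -0.41 in the whole gates to 0.32 (adjusted p = 0.309) without Pdgfra-positive cells.

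Within the fibroblast compartment, SEMF-like cells, which lie under the villus epithelium, were compared with trophocyte-like cells, which lie near the crypts, in the 4 small intestinal libraries. Of the 10 genes, 5 were higher in SEMF-like cells, all of them receptors or ligands, and 0 were lower, with 27% of 16752 genes higher and 29.5% lower. Dll1 was at 54.0, 46.1, 52.8 and 57.6 CPM in SEMF-like cells (proximal 1, proximal 2, distal 1, distal 2) and at 5.67, 9.45, 6.35 and 8.99 CPM in the trophocyte-like class (2.58 on the log2 scale, SE 0.15, adjusted p = 2.48e-05). Notch1 was at 48.9, 39.7, 40.8 and 43.4 CPM against 13.7, 16.7, 9.72 and 17.6 CPM (1.37, SE 0.13, adjusted p = 0.000211). Jag1 was at 25.04, 19.5, 16.9 and 19.2 CPM against 4.16, 5.24, 2.75 and 6.56 CPM (1.90, SE 0.18, adjusted p = 0.000197). For these 3 genes the groups did not overlap, which also held for Notch2, Notch3 and Notch4. The share of all genes without overlap was not counted, so no weight is put on this. Notch3 (2.00, SE 0.35, adjusted p = 0.00295) and Notch4 (1.97, SE 0.22, adjusted p = 0.000352) were also higher, from 533 and 79 UMIs in SEMF-like cells. Apart from Dll1, these levels in SEMF-like cells lay inside or below the ranges of empty droplets (Notch1 16.3 to 122, Jag1 7.74 to 31.1, Notch3 6.75 to 36.2 and Notch4 1.97 to 6.39 CPM). The targets did not pass, with Hes1 at -0.14 (adjusted p = 0.251) and Heyl at -0.26 (adjusted p = 0.187). Both depended on the setting: Hes1 was lower with classes from clusters (-0.81, adjusted p = 0.00117), and Heyl was lower with the stricter gate (-0.41, adjusted p = 0.0431). Notch2 (0.16, adjusted p = 0.106, or 0.23 with 0.0219 without distal library 1 and -0.32 with 0.00738 for classes from clusters), Jag2 and Dll4 did not pass either. The median log2 fold change was 0.98 for the 10 genes and -0.01 over all genes.

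Telocyte-like and SEMF-like cells could be compared in the 4 libraries with at least 20 telocyte-like cells (both proximal libraries, the cecum and the large intestine), where 1.06% of 14115 genes were higher and 1.91% lower. The proximal libraries held only 51 and 22 telocyte-like cells, the cecum 191 and the large intestine 1319, so the proximal levels rest on few cells. The classes are not cleanly apart. Over all libraries, SEMF markers summed to 1861 to 7219 CPM in telocyte-like cells, against 1352 to 3287 CPM in SEMF-like cells. The paper counts telocytes among SEMFs. None of the 8 Notch genes tested passed in edgeR (0 called, 4 at an unadjusted p under 0.05), and Jag2 and Dll4 were too low to be tested. Notch1 was at 6.58, 10.6, 11.6 and 7.66 CPM in telocyte-like cells against 48.9, 39.7, 15.7 and 12.5 CPM in SEMF-like cells, lower in 4 of 4 libraries (-1.14, SE 0.35, adjusted p = 0.165). Jag1 was at 49.3, 21.3, 14.0 and 17.2 CPM against 25.04, 19.5, 10.4 and 9.22 CPM, higher in 4 of 4 (0.62, adjusted p = 0.257). The number called depended on the setting, as did that over all genes (419). It was 2 with a stricter gate (1012 over all genes), 5 with classes taken from clusters (2655) and 3 in the small intestinal libraries alone (1412), Notch1 among them each time. The small intestinal setting used the proximal libraries only, since the distal ones held fewer than 20 telocyte-like cells.

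Along the small intestine, distal and proximal libraries were compared in LEC-like, fibroblast-like and pericyte gate cells, where 0%, 0.0106% and 0.0161% of genes were called. None of the 10, 10 and 8 Notch genes tested was called in edgeR, and none had an unadjusted p under 0.05. Limma-voom and DESeq2 called 0 as well. In LEC-like cells Notch1 was at 309.8 and 348 CPM in the proximal and 305 and 328 in the distal libraries (log2 fold change -0.08, SE 0.12), and Dll4 at 95.9 and 107 against 82.9 and 102 CPM (-0.15, SE 0.14). The ranges of the regions overlapped for both genes. There were 2 libraries a region, and the smallest difference they could show was not estimated.

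The large bowel libraries (cecum and large intestine, 1 each) were compared with the 4 small intestinal libraries within each class. The site and its single library cannot be told apart. Both large bowel libraries carry the hashtag set of proximal library 1 and distal library 1 (the first set). Proximal library 2 and distal library 2 carry another, so site and hashtag set are partly mixed. In fibroblast-like cells Heyl was at 11.7 CPM in the cecum library and 8.39 CPM in that of the large intestine, against 2.99, 2.77, 3.02 and 2.86 CPM in the small intestine, without overlap. The log2 fold change was 1.84 (SE 0.19, adjusted p = 0.00157), and it held in all 16 alternatives run, with adjusted p between 4.71e-14 and 0.0254. Empty droplets held Heyl at 2.63 to 13.3 CPM, a range that covers all 6 of these values. The call held when free RNA was subtracted at an assumed 10% of each sum. The share of free RNA within cells was not measured. Of the 10 genes tested 2 were higher and 1 was lower, with 30.9% of 19355 genes called in either direction. The others called were Notch2 (67.3 and 58.9 against 42.3 to 50.0 CPM, 0.48, SE 0.13, adjusted p = 0.028), lost without either proximal library, distal library 2 or the cecum (0.0541 to 0.125), and Jag2 (-1.73, adjusted p = 0.0377, 13 against 101 UMIs), lost without either proximal library, distal library 2, the cecum or the large intestine (0.0672 to 0.16). The fibroblast mixture also changed, with trophocyte-like cells making up 30.3% (cecum) and 20.4% (large intestine) of fibroblast-like cells but 72.4% to 91.9% in the small intestine. Within trophocyte-like cells, where 24.3% of genes were called, Heyl was at 13.1 and 14.6 CPM against 2.62 to 2.90 CPM (2.38, SE 0.13, adjusted p = 0.000147). The paper, however, places trophocytes mainly in the small intestine, and the trophocyte-like label needs only 2 of 6 markers. Whether it covers the same cell type in the large bowel was not tested. Within SEMF-like cells Heyl was at 4.67 and 1.67 against 2.38 to 3.30 CPM (0.39, adjusted p = 0.488).

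In LEC-like cells Heyl took the opposite direction. The cecum library held 5.17 CPM and that of the large intestine 12.4 CPM, against 23.4, 21.3, 31.5 and 24.1 CPM in the small intestine (-1.37, SE 0.32, adjusted p = 0.032), from 37 UMIs in the large bowel libraries. Both large bowel values lay inside the range of empty droplets (2.63 to 13.3 CPM). The call was lost without proximal library 1 (0.0644), proximal library 2 (0.0524) or the cecum (0.12) and in limma-voom (0.114), with 0.00101 to 0.12 over 16 alternatives. Jag1 was at 43.6 and 55.1 CPM against 36.4, 29.5, 31.9 and 34.9 CPM (0.62, SE 0.14, adjusted p = 0.0296), a call lost without proximal library 1 (0.0539), proximal library 2 (0.0729), distal library 2 (0.0502), the cecum (0.0829) or the large intestine (0.266), with 0.00839 to 0.266 over 16 alternatives. These were the 2 of 10 genes called in LEC-like cells, where 15.1% of genes were called. The difference between the large bowel effects of LEC-like and fibroblast-like cells was tested directly, and 7.18% of 19905 genes were called. It was -3.33 for Heyl (SE 0.36, adjusted p = 0.00423) and -0.94 for Notch2 (SE 0.20, adjusted p = 0.0375), and the other 8 genes did not pass.

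SEMF-like cells had less Notch1 in the large bowel, at 15.7 and 12.5 CPM against 48.9, 39.7, 40.8 and 43.4 CPM (-1.45, SE 0.16, adjusted p = 0.000868), and less Jag1, at 10.4 and 9.22 against 25.04, 19.5, 16.9 and 19.2 CPM (-0.88, SE 0.18, adjusted p = 0.00945). Both calls held in all 14 alternatives run, with adjusted p up to 0.00724 for Notch1 and up to 0.0483 for Jag1. Empty droplets held Notch1 at 16.3 to 122 CPM and Jag1 at 7.74 to 31.1 CPM. The large bowel Notch1 values lay below that range, and all other values of both genes lay inside. The paper describes an SEMF cluster that is abundant in the cecum and large intestine but not the small intestine. Its part in these differences was not tested. In all, 1 of 9 Notch genes was higher and 4 were lower in SEMF-like cells, with 37.8% of genes called. The early response genes described below for Hes1 also moved with the site in this class, summing to 11327 CPM in the cecum and 7137 CPM in the large intestine against 709 to 1568 CPM in the small intestine, and their part in these differences was not tested. Notch2 (-0.41, adjusted p = 0.0495), Notch3 (-1.73, adjusted p = 0.0493) and Hes1 (0.86, adjusted p = 0.0417) passed narrowly. Notch2 was lost without either proximal library, distal library 2, the cecum or the large intestine (0.0711 to 0.159), Notch3 without either proximal library, distal library 2 or the large intestine (0.0714 to 0.122), and Hes1 without either proximal library, distal library 2 or the cecum (0.0525 to 0.321).

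**Figure D4:**
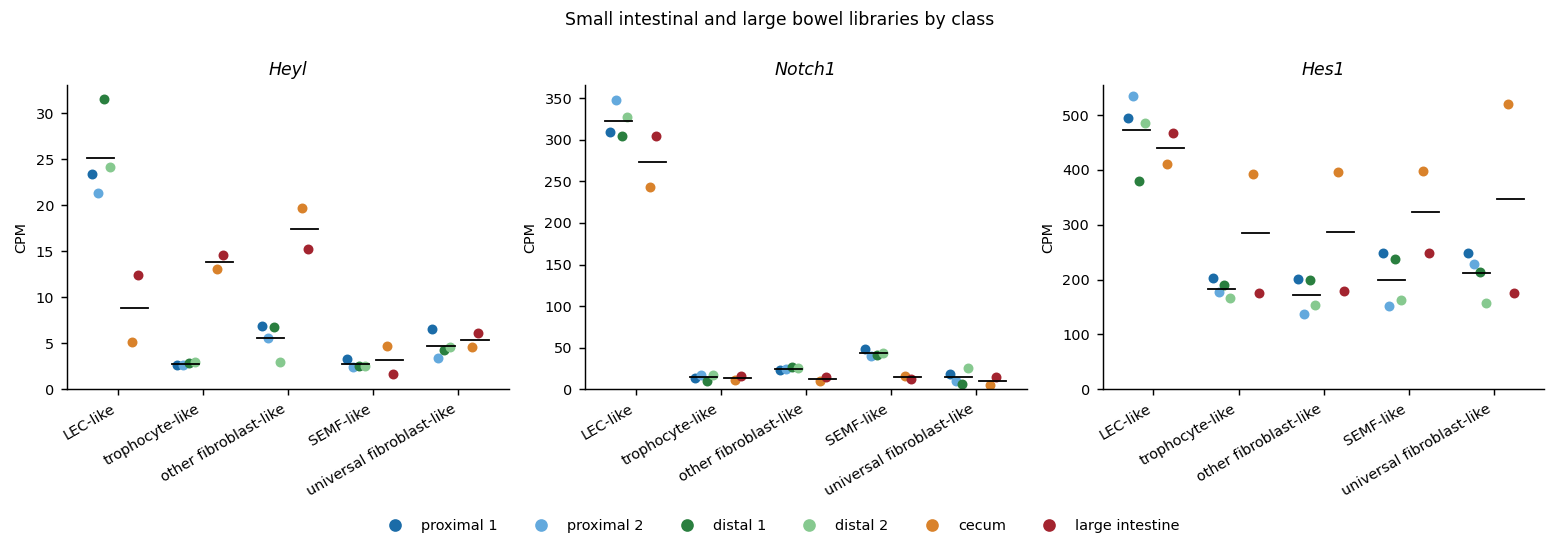
Level in CPM of Heyl, Notch1 and Hes1 in 5 classes. For each class the left points are the 4 small intestinal libraries, the right points are the cecum and the large intestine, and lines are the means of each. Heyl is lower in the large bowel in LEC-like cells and higher in trophocyte-like cells, Notch1 is lower in SEMF-like cells, and Hes1 stands apart in the cecum outside LEC-like cells.

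Hes1 was high in the cecum across the fibroblast classes. It was at 393 CPM in trophocyte-like, 398 in SEMF-like and 519.5 in universal fibroblast-like cells there, where the large intestine held 176, 248 and 176 CPM. Over all fibroblast-like cells the large bowel difference of Hes1 did not pass (0.79, adjusted p = 0.0848), but did without the large intestine (1.27, adjusted p = 0.00843). In LEC-like cells the cecum, at 411 CPM, lay inside the range of the other libraries. A list of 10 early response genes (Fos, Jun, Egr1 and others, written after the values were seen) summed to 23430 CPM in fibroblast-like cells of the cecum and 5939 to 9452 CPM in the other libraries, and to 15184 CPM against 5505 to 9135 CPM in LEC-like cells. Its part in the Hes1 values was not tested.

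In the pericyte gate 1 of 8 Notch genes was called between the large bowel and the small intestine, with 11.4% of genes called. Heyl was at 80.5 and 91.0 CPM against 24.3, 33.3, 15.3 and 54.1 CPM (1.46, SE 0.37, adjusted p = 0.0415), a call lost without either proximal library, the cecum or the large intestine (0.0702 to 0.191). In pericyte-like cells, where 13% of genes were called, Heyl did not pass (176 ± 22.3 against 125 ± 31.5 CPM, SD, n = 2 and 3, 0.50, adjusted p = 0.179 in edgeR). In the whole gate Notch3 (-0.03, SE 0.75, adjusted p = 0.984, and turned in direction in 10 of 16 alternatives) and Jag1 (-0.74, SE 0.58, adjusted p = 0.401) did not pass. In pericyte-like cells, a split made after the data were seen, Notch3 was lower in the large bowel (836 and 833 against 1333, 1664 and 1641 CPM, -0.86, SE 0.20, adjusted p = 0.0168), as was Jag1 (103 and 105 against 335, 352 and 281 CPM, -1.58, SE 0.22, adjusted p = 0.00142). For both genes the large bowel libraries lay below every small intestinal library. With pericytes taken from clusters the differences were -0.69 (adjusted p = 0.0376) for Notch3 and -1.37 (adjusted p = 0.00702) for Jag1.

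The rest of the pathway was followed through a list of 45 ligand-modifying enzymes, processing factors, coactivators and further targets. Of the 39 tested between LEC-like and fibroblast-like cells, 15 were higher and 12 lower (26.7% and 35.8% over all genes), with a median log2 fold change of 0.07 against -0.10 over all genes. Of those that took the same direction in every library, the most raised in LEC-like cells were Dtx1, a Notch-regulating ubiquitin ligase (302 ± 36.8 against 2.498 ± 1.31 CPM, SD, n = 6, log2 fold change 7.05, SE 0.35, adjusted p = 3.61e-06), Nrarp, a feedback inhibitor (6.03, adjusted p = 3.01e-05), and Lfng, a glycosyltransferase that alters ligand choice (5.75, adjusted p = 9.16e-05). The most lowered were Dner (-2.80), Dtx4 (-2.76) and Neurl1a (-2.05). Dtx1 also separated LEC-like from blood endothelial-like cells (7.80, SE 0.27, adjusted p = 3.41e-07), where 10 of 36 genes were higher and 12 lower (21.7% and 24.4% over all genes). Mfng, another glycosyltransferase of that family, went the other way (0.328 ± 0.221 against 32.2 ± 5.71 CPM, SD, n = 6, -7.22, SE 0.22, adjusted p = 2.06e-07).

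In the pericyte gate 6 of 39 of these genes were higher and 5 lower than in fibroblast-like cells, shares close to the 11.2% and 13.8% over all genes. Nrarp (6.22, adjusted p = 7.96e-05), the target Hey2 (5.12, adjusted p = 0.000113) and the atypical ligand Dner (246 ± 110 against 36.9 ± 10.0 CPM, SD, n = 6, 2.53, adjusted p = 3.8e-05) were higher. These values are of the whole gate, where 1994 of 2494 cells had a Pdgfra UMI and fibroblast markers led. They are not read as pericyte levels, and no values for pericyte-like cells alone are given. Between SEMF-like and trophocyte-like cells 9 of 37 were higher and 16 lower (27% and 29.5% over all genes). Hey1 (1.47, adjusted p = 0.00384), the Notch inhibitor Numb (1.11, adjusted p = 6.46e-05) and the coactivator Maml3 (0.68, adjusted p = 0.000791) were higher in SEMF-like cells, and Dner was lower (1.43 ± 0.211 against 48.0 ± 12.1 CPM, SD, n = 4, -5.42, SE 0.13, adjusted p = 9.66e-07). Between telocyte-like and SEMF-like cells the coactivators Maml2 (1.39, adjusted p = 0.0061) and Maml3 (-0.80, adjusted p = 0.0327) were the 2 of 34 genes called.

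As a description, the genes whose log2(CPM + 1) followed each Notch gene most closely over 71 sums of a library and class were listed by Pearson r across 15342 genes. The sums share libraries and depth, so no p is given. Dll4 was closest to Rtp3 (r = 0.9349), Cd300lg and Egfl7. Notch1 was closest to Cemip2 (0.8911), Arhgap31 and Afap1l1, Notch3 to Dgkb (0.9084) and Rgs4, and Jag2 to Selp (0.8978). The closest gene of Notch2 was Ehd1 (0.696), of Jag1 Actn4 (0.8384), of Hes1 Stard13 (0.8288) and of Heyl Chn1 (0.752), while Notch4 (Gm32688, 0.8999) and Dll1 (Gm13056, 0.7932) were closest to predicted genes.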

How the data were processed

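The authors aligned 10x Genomics 3′ v3.1 libraries to mm39 with the tdTomato sequence added (Cell Ranger 8.1.0 per the submitters' notes, 8.0.1 in the matrix headers) and deposited raw UMI counts of every barcode and hashtag, without removal of doublets or ambient RNA. From these counts, cells with 1000 to 7500 genes, 2500 to 40000 UMIs and at most 10% mitochondrial UMIs were kept, which are the limits of the study's methods, and predicted doublets (Scrublet in scanpy 1.11.5, 4.91% to 11.4% per library) were removed. Classes needed 3 of 6 fixed markers, and a lead of 2 markers where the next class also reached 3. Fibroblast-like cells needed a Pdgfra UMI, 4 of 6 fibroblast markers and no other class at 3. Their subclasses needed 2 of 6 markers and more than the next subclass. Of 25172 gated cells, 4282 had exactly 3 markers (60.99% of the pericyte gate and 45.71% of the smooth muscle gate). UMIs were summed per library and class (at least 20 cells) and tested with edgeR 4.0.16 (quasi-likelihood, TMM, filterByExpr), with the library as a block between classes and Benjamini-Hochberg adjustment over all genes tested at 0.05. SE is the log2 fold change divided by the square root of F. The 13 comparisons were checked on simulated data. The Notch genes and all lists were chosen with earlier results of these data known. The 10 genes are named throughout. Other pathway genes are named by the largest called changes, up to 3 per direction, that took the same direction in every library, and the most alike genes were taken from those reaching 10 CPM. Alternatives were limma-voom 3.58.1, DESeq2 1.42.0, RLE size factors, no filter on low counts, a stricter gate, classes from clusters, subtraction of free RNA, doublets kept, each library left out, the library block dropped, small intestinal libraries only, the replicate number as a block and, chosen after seeing the data, Pdgfra-positive cells left out, the first hashtag set only and trophocyte-like cells only. The subtraction of free RNA took an assumed 10% of each sum, with the make-up of empty droplets. Intervals were not given for single shares, since each is a mean over libraries.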

Additional observations from a re-analysis of the deposited data

Results flagged for a closer look

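The large bowel effect differed between LEC-like and fibroblast-like cells for 2 of the 10 genes when the difference itself was tested in 1 edgeR model over both classes. For Heyl the log2 fold change of large bowel over small intestine in LEC-like cells minus that in fibroblast-like cells was -3.33 (SE 0.36, adjusted p = 0.00423). LEC-like cells held 5.17 and 12.4 CPM of Heyl in the cecum and the large intestine against 21.3 to 31.5 CPM in the small intestine, and fibroblast-like cells held 11.7 and 8.39 against 2.77 to 3.02 CPM. The difference stayed past the threshold in every alternative run, from -2.53 without the cecum to -4.49 without the large intestine. With trophocyte-like cells in place of all fibroblast-like cells it was -3.95 (adjusted p = 0.00128). Whether the trophocyte-like label covers the same cell type in the large bowel was not tested. Within SEMF-like cells alone, Heyl did not pass between the large bowel and the small intestine. Empty droplets held Heyl at 2.63 to 13.3 CPM, a range that covers the large bowel LEC-like values and all the fibroblast-like values. For Notch2 the difference was -0.94 (SE 0.20, adjusted p = 0.0375). LEC-like cells held 70.9 and 80.0 CPM against 84.7 to 103 CPM, and fibroblast-like cells held 67.3 and 58.9 against 42.3 to 50.0 CPM. The Notch2 difference was lost without proximal library 1 (0.0973), proximal library 2 (0.0734), distal library 2 (0.0512), the cecum (0.252) or the large intestine (0.11).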

How the results depend on the processing

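Of 1133 alternative values for 73 gene-level results, 958 kept their direction and side of the threshold, 87 lost the call, 50 gained it and 38 turned direction. The number of Notch genes called in LEC-like over fibroblast-like, pericyte gate over fibroblast-like, LEC-like over blood endothelial-like and SEMF-like over trophocyte-like cells stayed within 1.5 times the count given. Elsewhere the count moved. Smooth muscle over pericyte gate went from 4 to 2 with doublets kept and 2 with no library block (leave-one-out 2 to 3). Telocyte-like over SEMF-like went from 0 to 2 with the stricter gate, 5 with classes from clusters and 3 with small intestinal libraries only. Distal over proximal in the pericyte gate went from 0 to 1 (Notch3, 0.99, adjusted p = 0.025) with no filter. For large bowel over small intestine, LEC-like went from 2 to 0 in limma-voom and 1 with the stricter gate (leave-one-out 0 to 2), fibroblast-like from 3 to 5 in DESeq2 and 1 with the first hashtag set only (leave-one-out 1 to 5), SEMF-like from 5 to 3 with the stricter gate, 3 with free RNA subtracted and 2 with the first hashtag set (leave-one-out 2 to 5), and the pericyte gate from 1 to 3 with no filter, 0 with the stricter gate, 3 with clusters, 0 with free RNA subtracted, 2 with the first hashtag set and 2 without Pdgfra-positive cells (leave-one-out 0 to 2). Where no construction of the alternative explains a change, its cause was not tested.

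Direction turned for values that, except where stated, had not passed the test. In the pericyte gate over fibroblast-like cells Notch2 was -0.18 with clusters and -0.50 without Pdgfra-positive cells, and Hes1 was 0.26 with the stricter gate, 1.25 with clusters and 1.22 without Pdgfra-positive cells. In smooth muscle over pericyte gate Notch2, which had passed, was 0.32 without Pdgfra-positive cells, Notch3 was 0.0854 in small intestinal libraries only, Jag1 was -1.995 with clusters and -0.88 without Pdgfra-positive cells, and Hes1 was -0.36 with the stricter gate, -1.92 with clusters and -1.22 without Pdgfra-positive cells (leave-one-out -0.02855 to 0.16). In SEMF-like over trophocyte-like cells, with clusters Notch2 was -0.32 and Heyl 0.14. In distal over proximal pericyte gate cells Notch3 was -0.05466 with clusters (leave-one-out -1.27 to 1.93). For large bowel over small intestine, Dll1 in fibroblast-like cells was -0.0615 in limma-voom, -0.0039 with no filter, -0.12 with the stricter gate, -0.04774 with clusters and -1.12 in trophocyte-like cells only (leave-one-out -0.83 to 0.54), and Dll4 in SEMF-like cells was 2.17 with free RNA subtracted. In the pericyte gate Notch3 was 0.52 in limma-voom, 0.00914 in DESeq2, 0.00139 with RLE size factors, 0.02094 with no filter, 0.37 with the stricter gate, 0.00838 with doublets kept and 1.63 with the first hashtag set (leave-one-out -0.33 to 0.88), Jag1 was 0.28 with the first hashtag set, and Hes1 was -0.05512 without Pdgfra-positive cells.

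Counts over all genes that moved by more than 1.5 times were as follows. Pericyte gate over fibroblast-like went from 4263 to 7470 with clusters and 1722 with no block, and smooth muscle over pericyte gate from 3090 to 1486 with no block. Telocyte-like over SEMF-like went from 419 to 973 in DESeq2, 1012 with the stricter gate, 2655 with clusters, 258 with free RNA subtracted, 59 with no block and 1412 in the small intestine (leave-one-out 179 to 691). Distal over proximal went from 0 in LEC-like cells to 10 in DESeq2 and 30 with no filter, from 2 in fibroblast-like cells to 0 in limma-voom, 143 in DESeq2 and 16 with no filter (leave-one-out 0 to 19), and from 2 in the pericyte gate to 0 in limma-voom, 8 in DESeq2, 268 with no filter, 0 with the stricter gate, clusters or free RNA subtracted, and 38 without Pdgfra-positive cells. Large bowel over small intestine went from 2200 in LEC-like cells to 1030 in limma-voom and 1436 with the first hashtag set (leave-one-out 442 to 3204), from 5978 in fibroblast-like cells to 1732 with that set (3158 to 6522), from 5879 in SEMF-like cells to 2607 with that set (3538 to 6810), and from 1458 in the pericyte gate to 2868 with no filter, 264 with the stricter gate, 954 with free RNA subtracted, 898 with that set and 870 without Pdgfra-positive cells (87 to 2498).

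Proximal and distal libraries carry replicate numbers 1 and 2, and same-numbered libraries share a hashtag set. The cecum and the large intestine carry the set of those numbered 1. With the replicate block 0 Notch genes were called in each of the 3 region comparisons, and 24, 323 and 94 genes in all. Deviations of same-numbered libraries correlated at 0.450 (LEC-like), 0.370 (fibroblast-like) and 0.291 (pericyte gate), which over 2 pairs does not show a pairing. Depth limits the low genes most, among them Jag2 in fibroblast-like cells (114 UMIs), Notch4 in SEMF-like cells (79) and Heyl in large bowel LEC-like cells (37).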
